A study of Mus musculus with 2 samples.

Results

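The genes described here encode the aminoacyl-tRNA synthetases, the enzymes that attach each amino acid to its transfer RNA. They were chosen by gene symbol from a list of 37, and 36 of them had a probe set among the 30920 genes named on the array: 20 enzymes of the cytosol and 16 of mitochondria. RNA of a control mouse was compared with RNA of a mouse given cuprizone, a copper chelator whose feeding strips myelin by killing oligodendrocytes. Both animals were male C57BL/6 mice and the tissue was labelled cerebellum, while the titles of both samples say mouse brain. The labels state a diet with cuprizone at 0.2% for 6 weeks; both samples carry that sentence, and each was assigned to its group by its own treatment label. The title of the cuprizone sample also carries the tag CPZ-5, whose meaning is not stated, so the duration rests on that sentence alone. There was 1 array per group, so differences have no error and no test, and it is the number of arrays that limits their precision. Values are log2 RMA expression, a difference is the cuprizone value minus the control value, also in log2, and in a tissue sample fewer cells of a type and less RNA per cell cannot be told apart.

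A synthetase activates its amino acid with ATP and then transfers it to the matching tRNA, so the family stands between amino acid supply and the ribosome. The enzymes fall into class I and class II by the fold of their catalytic domain, and mitochondria use a separate, nuclear-encoded set for most amino acids. In the cytosol several synthetases form a large complex with scaffold proteins. When amino acids run short, uncharged tRNA activates the kinase GCN2, and the transcription factor ATF4 then induces amino acid transporters, amino acid synthesis enzymes and many cytosolic synthetases. In humans, inherited defects of several of these enzymes, among them those of DARS, RARS, EPRS, EARS2 and AARS2, damage white matter.

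The samples went against their tissue label in part. Of 8 markers of granule and Purkinje cells, 5 lay within the background on both arrays, Gabra6 and Pcp2 among them, against 0 of 8 markers of forebrain neurons. Background here means at or below the top of the central 95% of receptor genes for odorants and pheromones, 4.68 for the control array and 4.71 for the cuprizone array. The tissue is therefore named here only as the label gives it. Markers of other cells moved with the comparison. All 8 myelin markers were lower on the cuprizone array, with a summed linear level of 3129 in the control and 1482 under cuprizone. All 8 markers of activated microglia were higher, with 294 and 661. Of the microglial markers 1 lay within the background on both arrays and 2 on the control array alone, and 1 myelin marker did so on the cuprizone array alone. Of 8 reactive astrocyte markers 7 were higher, with 420.4 and 1058, and 4 lay within the background on both arrays. The part of these cells in the synthetase values was not tested.

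Most cytosolic synthetase genes were slightly higher on the cuprizone array, while the mitochondrial ones were divided. Of the 20 cytosolic genes 15 were higher and 5 lower, and of the 16 mitochondrial genes 6 were higher and 10 lower, beside 45.3% higher and 51.6% lower among the 16559 genes measured, which are those whose higher value reached 4.34, the median of all values. The lower mitochondrial genes include Ears2 and Pars2, whose values were in the background on each array, so their direction is not known. With background values set to its upper limit 8 of 16 were higher. Ears2 and Pars2 count as higher there only through the gap of 0.024 between the limits of the 2 arrays. Under a filter at the 75th percentile of all values 4 of the 8 genes left were higher. All 36 synthetase genes passed the main filter. The median difference was 0.14 for the cytosolic genes, -0.057 for the mitochondrial genes and -0.012 for all measured genes. The cytosolic median turned to -0.12 and -0.26 when the arrays were scaled on hybridization and poly-A spike-in controls. The mitochondrial median was 0.0054 when values in the background were set to its upper limit, a sign that rests on the gap between the 2 limits. Over the 8 genes left by the 75th percentile filter it was 0.012. The spike-in scalings moved the median of all measured genes to -0.27 and -0.42, and relative to that median the cytosolic genes lay at 0.15 and the mitochondrial genes at -0.045 under both, as they did in the deposited values. Both scalings subtract a constant from every difference, which left 3 and 0 of the 36 genes higher, so every sign given below refers to the deposited scaling.

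The differences were small. A difference of at least 0.32 on the log2 scale, the threshold used for counts, was reached by Eprs in the higher direction and by Wars and Hars2 in the lower direction. That is 1 of 36 genes higher and 2 lower, beside 7.83% and 8.26% of measured genes, and 0 reached 1.5-fold in either direction, beside 1.6% and 1.35%. All 36 lay within the central 95% of differences of measured genes, from -0.49 to 0.50. The median size of the difference regardless of sign was 0.15 for the synthetase genes and 0.14 for all measured genes, so the individual genes differed by about as much as a typical measured gene. The plot of differences shows them against the spread of all measured genes. The measured genes were not matched to the synthetase genes by level. Of the 16559, 2507 lay in the background on both arrays and 1410 on 1 array alone, beside 2 and 1 of the 36.

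**Figure D1:**
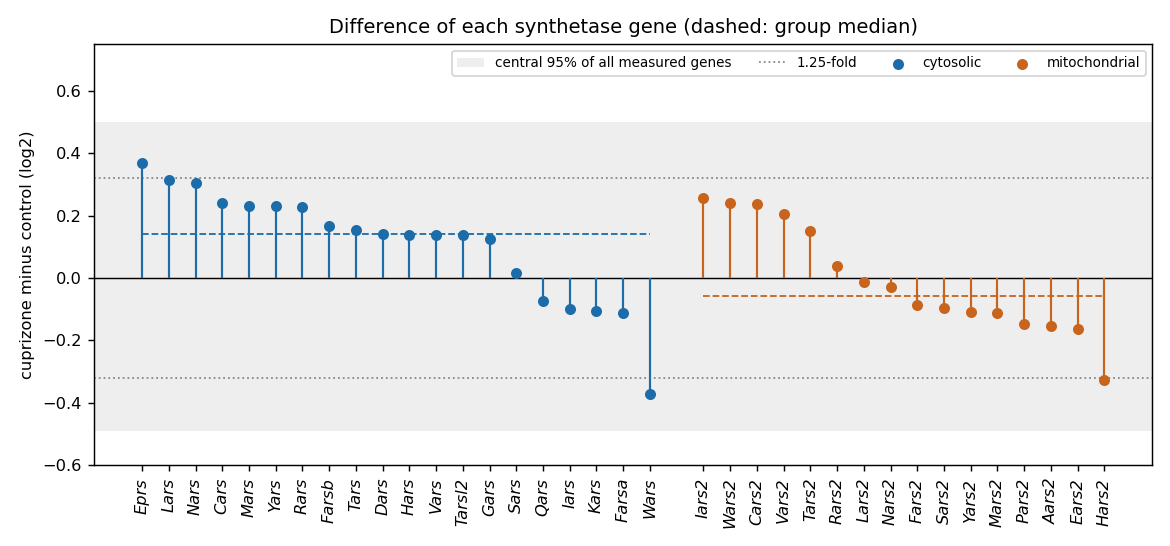
Difference between the arrays (cuprizone minus control, log2) for each of 20 cytosolic and 16 mitochondrial synthetase genes, with dashed lines at the group medians of 0.14 and -0.057, dotted lines at the threshold of 0.32 in either direction and a grey band for the central 95% of all measured genes. All points lie inside the band, and 15 of 20 cytosolic against 6 of 16 mitochondrial genes lie above 0 in the deposited values; under spike-in scaling the cytosolic median lies below 0.

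Among the cytosolic enzymes of the multisynthetase complex, 5 of 8 were higher and 3 lower, with a median of 0.18. Eprs, the fused enzyme that charges both glutamate and proline tRNA, had the largest positive difference of the family: its level was 6.81 for control and 7.18 for cuprizone, a difference of 0.37 or 1.29-fold, which exceeded that of 94.1% of measured genes; with poly-A scaling its difference was -0.034. Its probe set lies on chromosome 1 from 185363095 to 185428355 in the array annotation, for which no source used here gives a genome build. Lars, which charges leucine and has been reported to act as a leucine sensor for mTORC1, was at 5.89 and 6.21, a difference of 0.31 that falls just short of the threshold of 0.32. Mars, which also supplies the methionine for initiation, was at 6.18 and 6.41, and Rars, the arginine enzyme, at 5.46 and 5.68, so both differed by 0.23. Dars, the aspartate enzyme, was at 5.38 and 5.52. These 5 genes stood above the median of all measured genes by more than the other 3 complex members stood below it. Iars, which charges isoleucine, was at 7.28 and 7.18, Kars, whose gene makes both the cytosolic and the mitochondrial lysine enzyme, at 5.92 and 5.81, and Qars, the glutamine enzyme, at 6.06 and 5.99. Each of the 3 was lower by 0.11 or less.

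The scaffold proteins of the complex did not share the positive differences of Eprs, Lars, Mars, Rars and Dars. All 3 were slightly lower on the cuprizone array, as were the enzymes Iars, Kars and Qars, beside 51.6% lower among all measured genes. Aimp1, which also exists as a secreted cytokine, was at 5.23 and 5.06. Aimp2 was at 5.24 and 5.20, and Eef1e1, the scaffold also called AIMP3, at 5.36 and 5.28. Enzymes and scaffolds of the same complex therefore had medians of 0.18 and -0.078 in the deposited values; that difference was not tested.

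Of the 12 cytosolic enzymes outside the complex with a probe set, 10 were higher and 2 lower, with a median of 0.14. Nars, which charges asparagine, was the highest of them, at 7.27 in the control and 7.57 under cuprizone, a difference of 0.30. Cars, the cysteine enzyme, was at 5.40 and 5.64 and differed by 0.24. Yars, the tyrosine enzyme, which is mutated in a human hereditary neuropathy, was at 6.22 and 6.45, a difference of 0.23. The remaining positive differences were smaller. Tars, the threonine enzyme, was at 5.83 and 5.98, and Tarsl2, a cytosolic paralogue of it, at 5.39 and 5.52, so both threonine genes were higher, by 0.15 and 0.14. Hars, the histidine enzyme, was at 6.32 and 6.46, and Vars, the valine enzyme, which binds an elongation factor, at 5.15 and 5.29. Gars, whose gene makes the glycine enzyme of both compartments, was at 6.52 and 6.65. Sars, which charges serine and also primes the tRNA for selenocysteine, was at 7.46 and 7.48 and differed by only 0.017.

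Wars and Farsa ran the other way. Wars, the tryptophan enzyme, whose gene is induced by interferon gamma in human cells, was at 6.45 in the control and 6.07 under cuprizone, and its difference of -0.37 was the largest negative one of the family. Only 5.71% of measured genes had a lower difference. Its probe set lies on chromosome 12 from 108860030 to 108894174 on the minus strand. Farsa and Farsb encode the catalytic and the partner subunit of one phenylalanine enzyme, and they differed in sign: Farsa was at 5.85 and 5.73, and Farsb at 5.09 and 5.26. No row of the table carried the symbol Aars, the alanine enzyme, so it has no value here. A probe set labelled Exosc6, an exosome subunit whose gene is next to Aars in the RefSeq gene table, was at 5.96 and 6.12. It spans chromosome 8 from 111033144 to 111057664 on the plus strand, which overlaps the RefSeq interval of Aars if the builds are the same, and 17 of its 37 probes are listed as direct for Exosc6. Whether it measures Aars was not tested, and it is not counted as a member.

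**Figure D2:**
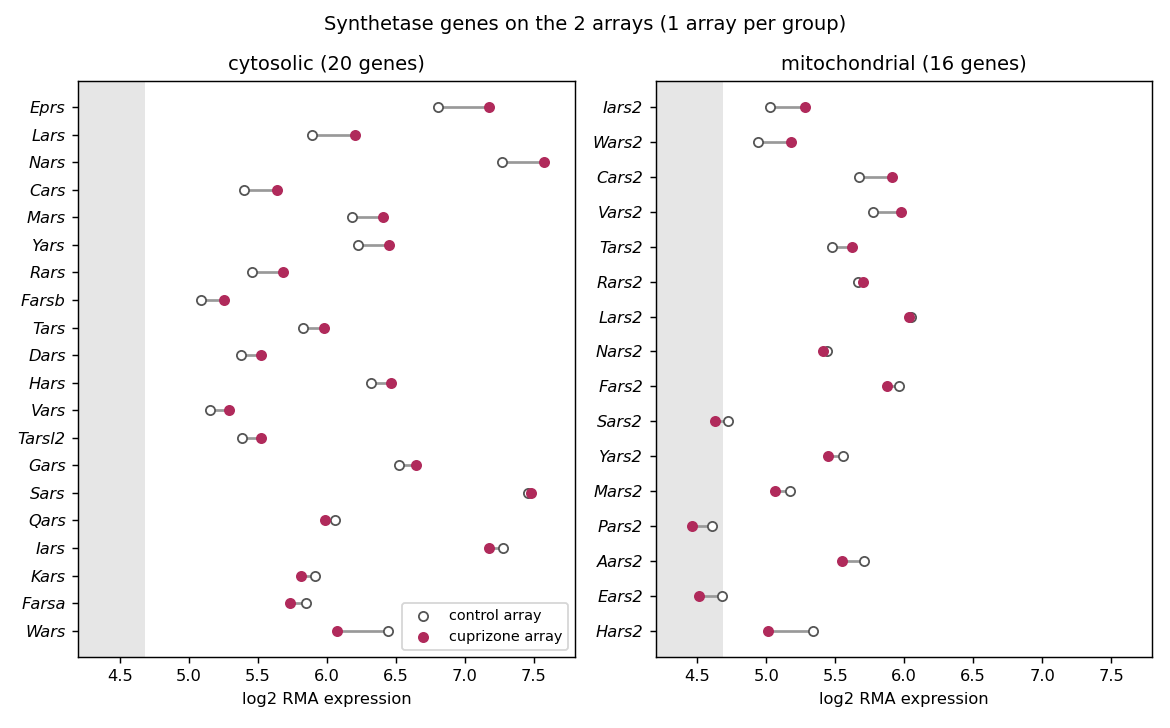
Log2 RMA expression of each synthetase gene for control (open points) and cuprizone (filled points), sorted by their difference, with the receptor background of the control array in grey; levels of different genes come from different probes and are not comparable. Ears2 and Pars2 lie in the background on both arrays and Sars2 on the cuprizone array; the 20 cytosolic genes lie above it.

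By enzyme class the cytosolic genes were alike in sign, with 7 of 10 class I genes and 8 of 10 class II genes higher and medians of 0.23 and 0.14. Eprs was counted in class I alone, though it also charges proline tRNA, whose mitochondrial enzyme Pars2 is class II. The mitochondrial genes were not: 5 of 9 class I genes were higher, with a median of 0.037, against 1 of 7 class II genes, with a median of -0.097. The class II median is the value of Sars2, which lay within the background on the cuprizone array. Pars2 of class II and Ears2 of class I lay within it on both arrays. With background values set to its upper limit, Sars2 differed by -0.017 and Pars2 and Ears2 by 0.024 each. Neither contrast was tested.

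Among the mitochondrial class I enzymes, Iars2, which charges isoleucine, had the largest positive difference, 0.26, with 5.03 in the control and 5.28 under cuprizone. Wars2, the tryptophan enzyme, was at 4.94 and 5.18, Cars2, the cysteine enzyme, at 5.68 and 5.91, and Vars2, the valine enzyme, at 5.77 and 5.98, so these 3 were higher by 0.24, 0.24 and 0.21. Rars2, the arginine enzyme, which is mutated in a human pontocerebellar hypoplasia, was at 5.67 and 5.70. Lars2, the leucine enzyme, was nearly the same on both arrays, at 6.05 and 6.04. The remaining members of this class were lower. Mars2, the methionine enzyme, was at 5.17 and 5.06, and Yars2, the tyrosine enzyme, at 5.56 and 5.45. Ears2, which charges glutamate and also misacylates the glutamine tRNA, was at 4.68 and 4.51, within the background on both arrays, so no fold is given.

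Of the mitochondrial class II enzymes, Tars2, the threonine enzyme, was the 1 gene with a positive difference, at 5.47 and 5.62. Hars2, the histidine enzyme, had the largest negative difference of the mitochondrial set: it was at 5.34 in the control and 5.01 under cuprizone, a difference of -0.33 or 1.26-fold lower. Aars2, the alanine enzyme, was at 5.71 and 5.55, and Fars2, the single-chain phenylalanine enzyme, at 5.96 and 5.87. Nars2, the asparagine enzyme, was at 5.44 and 5.41 and differed by -0.028. The remaining members lay at or near the background. Sars2, the serine enzyme, was at 4.73 and, within the background, 4.63, so it was lower by at least 0.017, and Pars2, the proline enzyme, was within the background on both arrays at 4.61 and 4.46.

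Set side by side for the same amino acid, the cytosolic gene had the more positive difference in 12 of 15 pairs, with a median gap of 0.19, a value that does not depend on a constant scaling of an array. In 9 pairs the cytosolic gene was higher and the mitochondrial gene lower, in 4 both were higher, in 2 the cytosolic gene was lower and the mitochondrial one higher, and in 0 both were lower. Eprs stands in 2 of these pairs, against Ears2 and Pars2, both of which lie in the background; with background values set to its upper limit each of those gaps was 0.35. Among pairs above the background on both arrays, Hars and Hars2 had the largest positive gap, 0.47. Their annotated intervals lie head to head on chromosome 18 and overlap by 198 bases, with Hars on the minus strand from 36766528 to 36783205 and Hars2 on the plus strand from 36783008 to 36792567, and the genes differed by 0.14 and -0.33. Tryptophan and isoleucine were the opposite case: the gap was -0.61 for Wars and Wars2 and -0.36 for Iars and Iars2. For cysteine and threonine the cytosolic and mitochondrial genes differed almost equally, with gaps of 0.0062 and 0.0017. No test of these gaps was possible with 1 array per group.

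**Figure D3:**
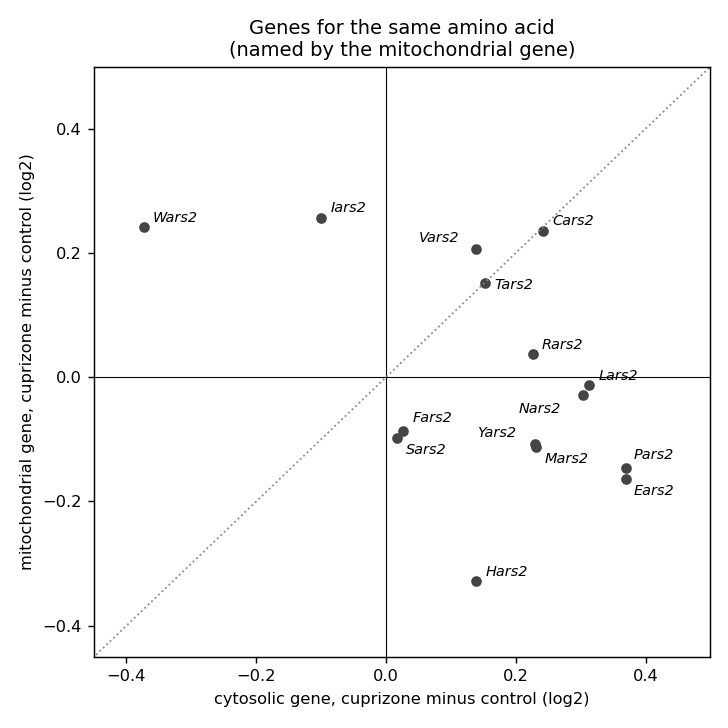
Difference between the arrays (cuprizone minus control, log2) of the cytosolic gene on the horizontal axis and of the mitochondrial gene for the same amino acid on the vertical axis, for 15 pairs named by the mitochondrial gene; Fars2 is set against the mean of Farsa and Farsb, and the dotted line marks equal differences. In 12 pairs the point lies below the line, and Wars2 lies farthest above it.

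Genes known as targets of ATF4 made up 12 of the 20 cytosolic genes. Of these 10 were higher, with a median of 0.19, and of the other 8 cytosolic genes 5 were higher, with a median of 0.14; the contrast between them was not tested. The exceptions were Iars and Wars, described above. Some other genes of the amino acid response differed by more, while others lay within the range of the synthetase genes. Of 14 genes of uncharged tRNA sensing and its targets 11 were higher, 6 of them past the threshold of 0.32 and 4 past 1.5-fold. The other 3 were lower, 1 of them, Phgdh, past the threshold in the deposited values, and the median was 0.29. The cuprizone value of Phgdh was in the background, so its difference is known only to be at least 0.30, short of the threshold. The shares of all measured genes past these limits were 7.83% and 1.6% higher and 8.26% lower. Among the higher genes, Mthfd2, a mitochondrial folate enzyme, lay within the background on both arrays and Chac1, which degrades glutathione, on the control array. Slc7a11, the cystine importer, and the transcription factor Atf5 had the largest differences, 1.09 and 1.06. Slc7a5, which imports large neutral amino acids such as leucine, phenylalanine and tryptophan, went from 7.05 to 7.98, a difference of 0.93, and its heavy chain partner Slc3a2 from 7.27 to 7.82. Atf4 itself was at 6.24 and 6.44, Ddit3, the partner factor CHOP, at 5.19 and 5.44, and Eif2ak4, the gene of GCN2, at 5.98 and 6.01. The direction was not shared by all targets: Asns, asparagine synthetase, was at 6.24 and 6.20 and Trib3, a feedback inhibitor of ATF4, at 5.11 and 4.90. Phgdh, the first enzyme of serine synthesis, had the most negative value, with 5.01 and, within the background, 4.52, while Psat1, a later enzyme of that path, was at 5.76 and 6.07. Sesn2, a stress-induced inhibitor of mTORC1 signalling, lay within the background on both arrays. The differences in this list thus ran from one of at least 0.30 in the lower direction for Phgdh to 1.09 for Slc7a11, beside a range from -0.37 to 0.37 for the synthetase genes.

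ATF4 binds with C/EBP factors to the C/EBP-ATF response element, and the 28 members with a promoter sequence in the RefSeq table (GRCm38.p6) were searched for it from 250 bases before to 50 bases after the gene's start. The motif TGATGNAA, sought on both strands, was present in 5 of 14 cytosolic promoters, those of Aars, Gars, Iars, Tars and Yars, and in 0 of 14 mitochondrial ones, beside 4.51% of 27025 genes. Its narrower form TGATGCAA, each match of which is also a match of the first, was present in Aars, Iars, Tars and Yars, beside 1.03% of genes. The E-box CACGTG was found in 4 cytosolic and 1 mitochondrial promoter, beside 8.09%. All 5 genes with TGATGNAA are among the known ATF4 targets, of which 8 had a promoter sequence. The 4 of these promoters whose genes have a value are shown to place the element, with the match in capitals (on the reverse strand it reads TTGCATCA or TTTCATCA).
Yars, chr4:129189653-129189952, plus strand: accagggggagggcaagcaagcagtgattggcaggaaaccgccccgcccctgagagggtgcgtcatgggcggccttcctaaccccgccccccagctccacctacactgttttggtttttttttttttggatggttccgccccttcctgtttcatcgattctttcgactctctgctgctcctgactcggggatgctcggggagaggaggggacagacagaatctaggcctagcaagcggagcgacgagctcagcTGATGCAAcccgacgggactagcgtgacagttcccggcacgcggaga
Tars, chr15:11399609-11399908, minus strand: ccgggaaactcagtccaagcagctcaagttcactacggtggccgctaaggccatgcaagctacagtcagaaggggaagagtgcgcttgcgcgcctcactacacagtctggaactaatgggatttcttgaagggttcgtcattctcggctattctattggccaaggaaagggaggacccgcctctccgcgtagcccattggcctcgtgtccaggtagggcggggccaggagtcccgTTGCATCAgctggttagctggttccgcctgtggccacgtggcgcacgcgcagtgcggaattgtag
Gars, chr6:55037751-55038050, plus strand: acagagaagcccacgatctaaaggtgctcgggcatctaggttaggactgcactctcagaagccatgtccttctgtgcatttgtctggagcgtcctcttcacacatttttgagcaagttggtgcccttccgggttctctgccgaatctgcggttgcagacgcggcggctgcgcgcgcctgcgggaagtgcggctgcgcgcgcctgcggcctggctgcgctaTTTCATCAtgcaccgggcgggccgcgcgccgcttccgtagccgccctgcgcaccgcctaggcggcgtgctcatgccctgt
Iars, chr13:49681880-49682179, plus strand: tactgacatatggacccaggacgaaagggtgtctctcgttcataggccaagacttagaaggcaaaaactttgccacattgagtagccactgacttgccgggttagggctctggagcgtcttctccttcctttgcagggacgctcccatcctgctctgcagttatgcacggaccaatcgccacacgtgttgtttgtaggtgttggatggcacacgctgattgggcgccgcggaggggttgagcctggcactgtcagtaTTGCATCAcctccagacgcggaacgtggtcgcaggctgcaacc

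The match lay close to the start in all 4 sequences: from base 4 to 11 after it in Yars, from base 8 to 15 after it in Iars, from 15 to 8 before it in Tars and from 30 to 23 before it in Gars. Genes with and without the motif did not separate by their difference between the arrays. The 4 cytosolic genes with the motif and a value ranged from -0.10 for Iars to 0.23 for Yars with a median of 0.14, and the 9 cytosolic genes without it in this window from -0.11 for Farsa to 0.37 for Eprs, also with a median of 0.14. A match is a description of the sequence and not a site of binding, and no match says only that these letters are not in this window.

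**Figure D4:**
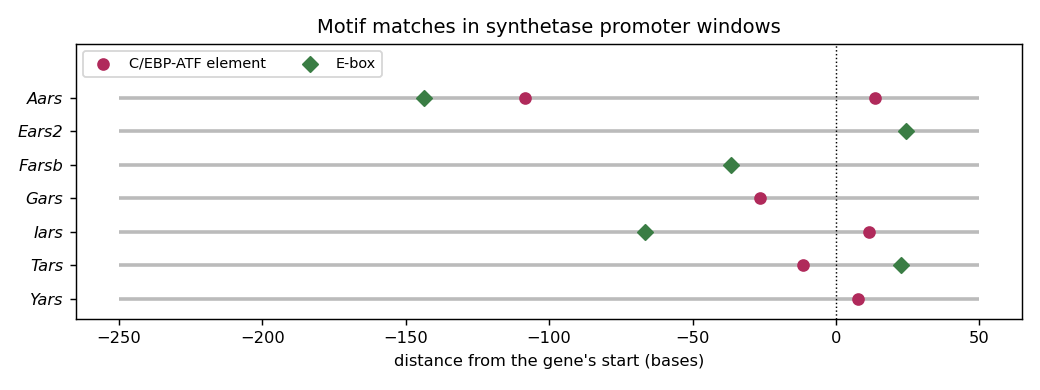
Matches to the C/EBP-ATF element (circles) and the E-box (diamonds) in the promoter windows of the synthetase genes that hold at least 1 of them, by distance in bases from the gene's start (dotted line). The element occurs in Aars, Gars, Iars, Tars and Yars, and the only mitochondrial gene shown, Ears2, has an E-box alone.

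Genes that act on tRNA before or after the synthetases differed in both directions, beside 45.3% higher and 51.6% lower among all measured genes. Apart from the mitochondrial genes described below, Eef1b2 alone among them passed the threshold. Of 4 genes for proofreading of charged tRNA 3 were higher: Aarsd1, a free-standing editing factor for misacylated alanine tRNA, was at 4.76 and 5.06, Dtd1 and Prorsd1 were higher by less than 0.05, and Dtd2, a tRNA deacylase, was at 5.50 and 5.34. Xpot, the tRNA exporter and a known ATF4 target, was at 6.09 and 6.16, and Trnt1, which adds the CCA end, differed by -0.043. Of 4 genes for selenocysteine, Pstk, Sepsecs and Eefsec were higher and Secisbp2 lower, with differences between -0.071 and 0.062. In the cytosol, 2 of 6 elongation factor genes were higher. Eef1b2, which recharges the factor that carries tRNA to the ribosome, was at 6.64 and 6.98, 1.26-fold higher, whereas Eef1a2, the form of that factor in neurons and muscle, was at 8.68 and 8.39. The broadly expressed Eef1a1 was higher by 0.10, and Eef1d, Eef1g and the translocation factor Eef2 differed by -0.091, -0.11 and -0.046.

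Partners of the mitochondrial synthetases did not share 1 direction, beside 45.3% higher and 51.6% lower among all measured genes. Mitochondria lack a glutamine enzyme and convert misacylated glutamate tRNA with an amidotransferase; its subunit genes Gatb, Gatc and Qrsl1 and the methionyl-tRNA formylase gene Mtfmt were all higher. Gatc had the largest of these differences, with 6.14 and 6.49, or 1.27-fold, and Gatb the smallest at 0.012. The mitochondrial elongation factors were all lower: Gfm1 was at 5.65 and 5.33, Tufm at 6.09 and 5.85 and Gfm2 at 6.17 and 6.06, while Tsfm lay within the background. Of 69 measured mitochondrial ribosomal protein genes 31 were higher and 36 lower, with a median of -0.017. This split was close to that of all measured genes, whose median was -0.012. Their extremes were Mrps18b at 4.93 and 5.56, Mrpl20 at 4.05 and 4.61 within the background on both arrays, Mrpl27 at 4.78 and 4.15, the latter within the background, and Mrpl49 at 5.35 and 4.76. In the deposited values the mitochondrial synthetase median of -0.057 lay between the medians of these ribosomal proteins and of the 3 measured elongation factors, -0.017 and -0.25. Of the 77 ribosomal protein genes found, 20 lay within the background on both arrays. The synthetase median was 0.0054 with background values set to its upper limit, a sign that rests on the gap between the limits of the arrays. Under the 75th percentile filter the synthetase median was 0.012. The medians of the other lists were not recomputed in that way.

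**Figure D5:**
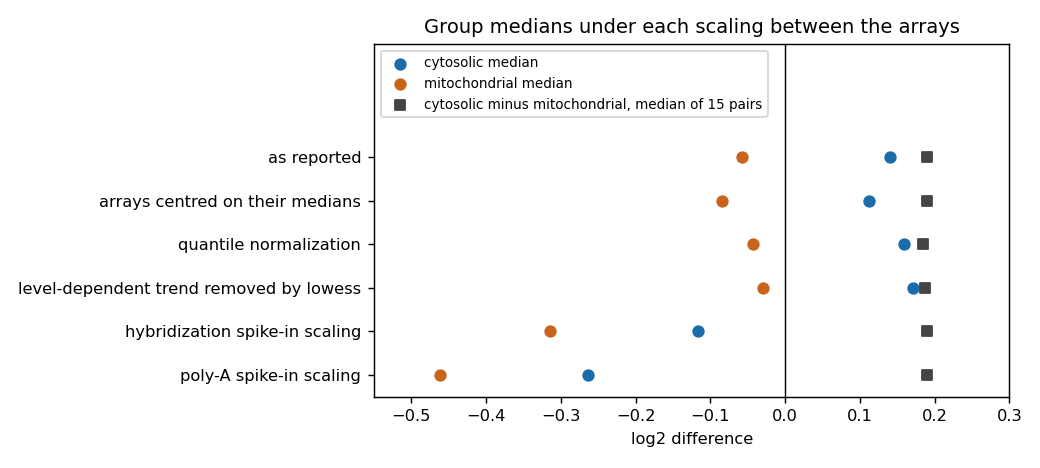
Median log2 difference of the cytosolic and mitochondrial synthetase genes, and median gap over 15 pairs for the same amino acid, under the deposited values and 5 further scalings between the arrays. The cytosolic median is positive in the deposited values and under 3 scalings and negative under both spike-in scalings. The pair gap stays between 0.18 and 0.19. Median centring and the spike-in scalings could not move it, since each subtracts a constant from every difference.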

How the data were processed

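RNA of 1 control and 1 cuprizone mouse was hybridised to 2 Affymetrix Mouse Gene 2.0 ST arrays. The authors deposited log2 expression values for 41345 probe sets, which came from RMA in the Affymetrix Power Tools software, as named per the submitters' processing notes; RMA equalises the probe distributions, so a shift of total RNA would be removed. A second deposited table of log2 values differed by at most 5.0e-05. No build or annotation release was found in the sources used here; probe set start and end were both equal to RefSeq GRCm38.p6 for 15 of 36 members. Each of the 36 had 1 probe set, with 19 to 37 probes, annotated as unique. For other genes the probe set with the highest mean was used, which gave 30920 genes. Arrays had medians of 4.33 and 4.36 and a Pearson's r of 0.979 across probe sets, which are not independent replicates.

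With 1 array per group no test was run; counts are given past a log2 difference of 0.32 and past 1.5-fold, beside the share of 16559 measured genes. All members and the genes of the small translation lists were named; mitochondrial ribosomal proteins by the 2 largest differences in each direction, and cell markers as counts. Members and lists were chosen with earlier results of these data known. Calculations were checked on simulated data with planted differences. Spike-in scaling used the 14 hybridization and 24 poly-A controls at or above the level filter of 4.34. Promoter sequences were RefSeq's; protein sequences were not used here. Python 3.11.15, pandas 2.3.3 and statsmodels 0.14.6 were used.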

Additional observations from a re-analysis of the deposited data

How the results depend on the processing

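No paired analysis was possible because each group had 1 array. Of the results above, the cytosolic median of 0.14, the mitochondrial median of -0.057, the counts past 0.32 and the pair gap of 0.19 were recomputed under 12 alternatives for scaling, probe sets, level filter and table, with list means and a 1.5-fold threshold besides. The pair gap stayed between 0.18 and 0.19 under the 12 alternatives. Scalings that subtract a constant could not move it, and the 75th percentile filter kept only 5 of the 15 pairs. Means in place of medians were taken for the cytosolic and mitochondrial lists alone, not for the gap. With hybridization spike-in scaling the cytosolic and mitochondrial medians were -0.12 and -0.31, 0 cytosolic genes were higher past the threshold of 0.32, and 5 cytosolic and 8 mitochondrial genes were lower. With poly-A scaling these values were -0.26, -0.46, 0, 6 and 11, and Eprs differed by -0.034. Both subtract a constant, 0.26 and 0.40, from every difference. Quantile normalization and lowess each gave 3 cytosolic genes past the threshold in place of 1, and lowess gave 0 mitochondrial genes lower in place of 1; Lars and Nars lay just under the threshold in the deposited values. The 75th percentile filter kept 8 mitochondrial genes, with a median of 0.012 and 0 lower past the threshold. Raising background values to their upper end gave a mitochondrial median of 0.0054, a sign that rests on the gap between the limits of the arrays. At 1.5-fold the counts were 0 cytosolic higher, 0 cytosolic lower and 0 mitochondrial lower. Under quantile normalization and lowess each of the 36 genes stayed within 0.1 of its deposited value. Alternatives for probe sets could not move single genes, since each has 1 unique probe set. Level filters only kept or dropped genes, and the second table differed by at most 5.0e-05. Raising background values moved Ears2 and Pars2 by more than 0.1, each to 0.024. Signal over background limits Ears2, Pars2 and Sars2.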
